A study of Homo sapiens with 4 samples.

Results

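The genes described here are 35 genes of the glutathione, thioredoxin and NADPH antioxidant systems. They were chosen by name from a list of enzymes, transporters and regulators. No measured value was in the rule, but the members were chosen with earlier results of these data known. Their shares beside all loci therefore describe a chosen set. All 35 were found among the 18650 loci above 0 in the table. They fall into roles: glutathione synthesis, reduction and peroxidases, glutathione transferases, the thioredoxin system, superoxide dismutases, haem and quinone enzymes, NRF2 and its regulators, the pentose phosphate pathway with malic enzyme, and detoxification and export.

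Glutathione is a tripeptide thiol that is made by glutamate-cysteine ligase and glutathione synthetase, spent by peroxidases and transferases, and restored from its oxidised form with NADPH. Thioredoxin is a small protein that reduces disulfides, among them those of peroxiredoxins, and is itself restored by thioredoxin reductase with NADPH, which the pentose phosphate pathway and malic enzyme supply. NRF2, encoded by NFE2L2, is a transcription factor that KEAP1 marks for degradation, and when stabilised it pairs with a small Maf protein at antioxidant response elements near many genes of both systems. In the gut lining these systems meet electrophiles and peroxides from food, bacteria and inflammation.

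The cells were HT-29, a line of human colorectal adenocarcinoma, and NCM460, the normal colon cells of the study, and RNA was sequenced from each, untreated or exposed for 24 h to 100 μg/mL of sturgeon chondroitin sulfate, abbreviated SCS, a sulfated polysaccharide. Each of the 4 conditions was 1 library, so no difference between conditions has a replicate check, no test was made between conditions and no p-value is given. Each line is a single culture line under 1 dose and 1 time. Of 12 colon epithelium markers, 7 were above 3 fragments in each HT-29 library and 5 in each NCM460 library. CDX1, GPA33 and TFF3 were at 0 in all 4 libraries, and NCM460 cells had none of VIL1, KRT20, LGALS4 and CDH17. CDX2, a transcription factor of intestinal epithelium, was at 0 in both HT-29 libraries, against 14 and 12 fragments in NCM460 cells without and with SCS. CDH17, a cadherin of the gut, had 1 fragment in the HT-29 control and 0 with SCS. Of 9 mesenchymal markers, 5 were above 3 fragments in the NCM460 control and 2 in the HT-29 control.

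Values are whole RNA fragments per locus. Fragments were scaled to library size (CPM) with edgeR's TMM factors, and changes are log2 ratios of CPM with a prior count of 2. The range in parentheses after a ratio is an exact Clopper-Pearson 95% interval, which covers counting error only. A gene is said to rise or fall where its change passed 1.5-fold and the interval left out 0. The libraries held between 1156568 and 1654764 fragments, of which the mitochondrial genome took from 13.8% in HT-29 cells with SCS to 62.3% in the NCM460 control. The nuclear fragments numbered 1061700 and 1383424 in the HT-29 control and with SCS, and 507692 and 621582 in the NCM460 pair, so the members were measured less precisely in NCM460 cells. In NCM460 cells the ratios followed the GC content of the transcript over the whole table, with a Spearman coefficient of -0.63 across 12600 loci, against -0.11 across 12106 loci in HT-29 cells. NCM460 values are therefore also given with that trend subtracted. Coefficients across genes are descriptions of these libraries, and genes are not replicates.

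A letter core of the antioxidant response element, TGACNNNGC with N for any base, was searched on both strands in RefSeq promoters of GRCh38.p14, from 250 bases before to 50 bases after each start site. A promoter was present for 27 of the 35 members, and 7 of them, 25.9%, held the core, against 13.3% of all 35116 promoters. The 7 were GCLM, TXNRD1, PGD and ME1, which rose in HT-29 cells, and GPX2, GSTP1 and GSTO1, which fell there. They are shown because genes on both sides of the response carry the same letters. The core is in capitals, within 10 bases on either side, and each line reads 5′ to 3′ along the strand of the gene. Where the core lies on the other strand, the capitals read as its reverse complement.
GCLM: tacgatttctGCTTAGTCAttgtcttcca
TXNRD1: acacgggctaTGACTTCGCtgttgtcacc
PGD: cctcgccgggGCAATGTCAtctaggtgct
ME1: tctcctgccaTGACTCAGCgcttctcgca
GPX2: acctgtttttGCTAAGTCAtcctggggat
GSTP1: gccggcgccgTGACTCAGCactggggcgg
GSTO1: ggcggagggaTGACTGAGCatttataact
These windows lie at chr1:93909446-93909474 on the minus strand for GCLM, chr12:104215670-104215698 on the plus strand for TXNRD1, chr1:10398853-10398881 on the plus strand for PGD and chr6:83431170-83431198 on the minus strand for ME1. Those of the genes that fell lie at chr14:64942849-64942877 on the minus strand for GPX2, chr11:67583736-67583764 on the plus strand for GSTP1 and chr10:104254656-104254684 on the plus strand for GSTO1. In these windows the core begins between 34 bases before the RefSeq start site, in GCLM, and 226 bases before it, in GSTO1. TXNRD1, ME1 and GSTO1 each hold a second core in the promoter, which is not shown. In ME1 and GSTP1 the core begins with TGACTCA, letters that also form the AP-1 site, so the motifs overlap there. Of the members with a promoter, 4 of 10 that rose in HT-29 cells held the core, as did 3 of 4 that fell and 0 of 13 that did neither. A match is only a match of letters, and its absence speaks only of this window. GCLC, SRXN1, NQO1 and OSGIN1 had no core in it. GSS, GSR, MGST2, PRDX1, PRDX6, SOD1, HMOX1 and ABCC1 had no promoter entry.

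In HT-29 cells with SCS, RNA rose for both glutamate-cysteine ligase subunits, thioredoxin reductase, sulfiredoxin, haem oxygenase, NRF2 itself, its partner MAFG, OSGIN1, and 3 of the 4 genes of the pentose phosphate pathway and malic enzyme, while several transferases, GPX2, PRDX1 and SOD1 fell. Of the 34 members compared, 11 rose and 8 fell, or 55.9%, against 31.7% of all 12168 loci compared. Over all loci 16.8% were called higher and 14.8% lower, against 32.4% and 23.5% of the members. Among loci at a mean of at least 5 CPM, where counting intervals are narrower, 36.8% were called and 57.6% of 33 members. The median log2 ratio was 0.28 over the members and 0.07 over all loci. Scaled by total counts only, 14 members rose and 4 fell, against 24.9% higher and 8.82% lower over all loci, whose median was 0.31. The falls of GSS, MGST3, PRDX1 and SOD1 were then no longer calls, and MGST1, KEAP1 and UGDH were called higher. At equal nuclear depth the falls of GSS, MGST2 and MGST3 were not called. With the mitochondrial genome left out of the scaling, all 19 calls were kept. RNA from whole cultures cannot tell fewer cells with a transcript from less of it per cell. ABCC2, with 2 fragments in the control and 1 with SCS, was too low to compare.

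**Figure D1:**
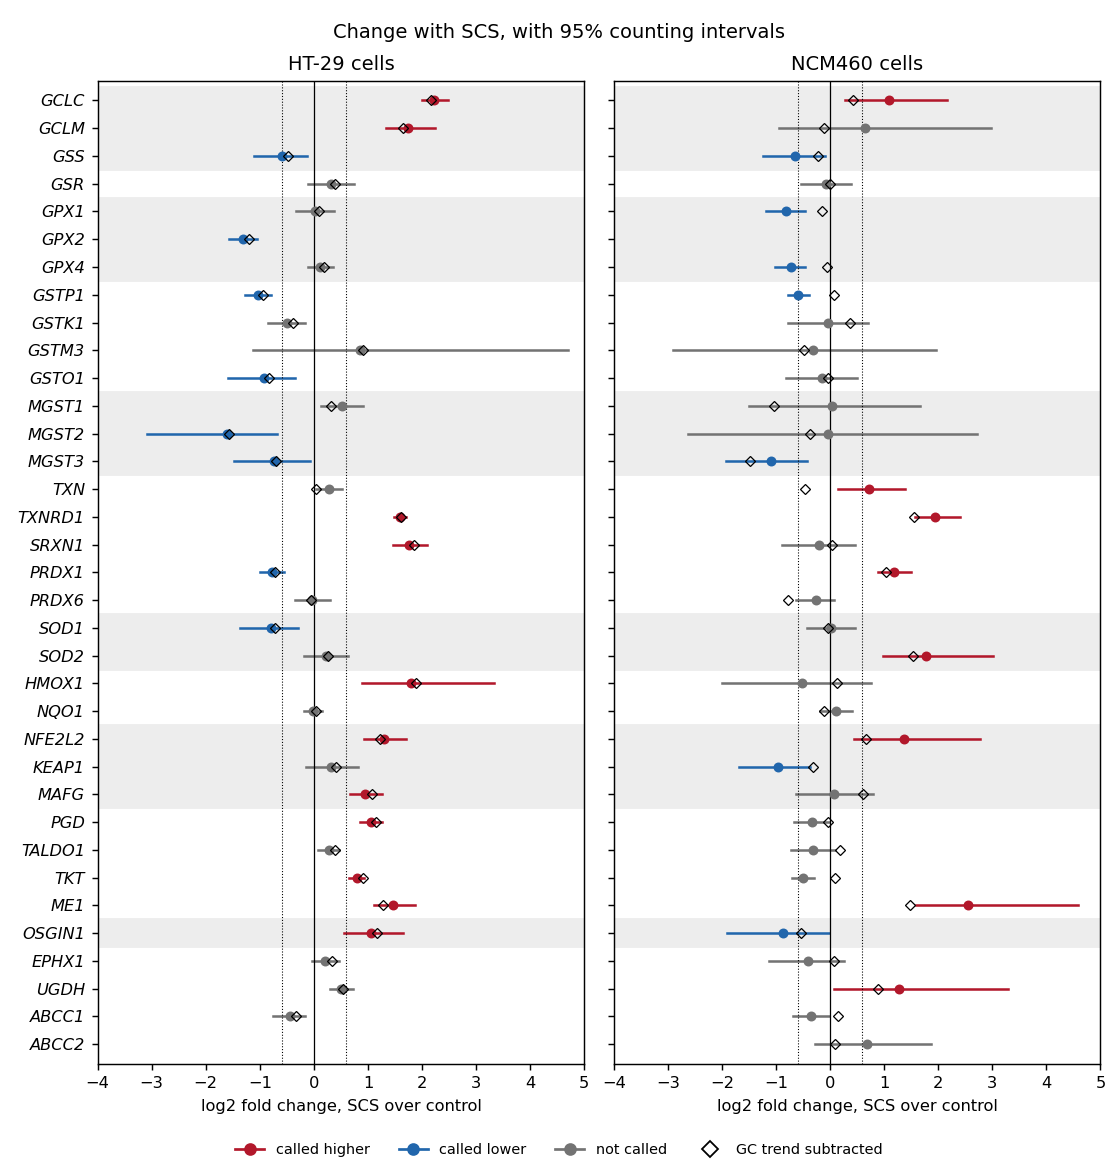
Log2 ratio of SCS over control for each member in HT-29 cells (left) and NCM460 cells (right), ordered by role with alternating grey bands. Filled points are the ratios with 95% counting intervals as bars, coloured by call (rise, fall or neither), open diamonds are the ratios after the GC trend was subtracted, and dotted lines mark 1.5-fold. The diamonds stay near the points in HT-29 cells and leave them in NCM460 cells, where GCLC moves from 1.09 to 0.42 and TXN from 0.72 to -0.47.

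The members together took 0.643% (0.628 to 0.658) of the nuclear fragments in the HT-29 control and 0.861% (0.846 to 0.877) with SCS, each with an exact binomial 95% interval. TXNRD1 alone was 11.5% of the members' fragments in the control and 23.2% with SCS. Without TXNRD1 the other 34 members took 0.569% (0.555 to 0.583) and 0.661% (0.648 to 0.675), so the intervals still did not overlap. In NCM460 cells the members took 0.532% (0.512 to 0.553) in the control and 0.568% (0.549 to 0.587) with SCS. These intervals overlapped, which does not show that the shares are equal. Without TXNRD1 the NCM460 shares were 0.521% (0.501 to 0.541) and 0.518% (0.50 to 0.536).

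In NCM460 cells 8 of 34 members rose and 7 fell, or 44.1%, against 29.1% of 12657 loci. Over all loci 15.3% were higher and 13.7% lower. With the GC trend subtracted 4 members rose, TXNRD1, PRDX1, SOD2 and ME1, and 2 fell, MGST3 and PRDX6. That was 17.6% of the members, against 12.7% of 12600 loci, with 6.91% higher and 5.75% lower over all loci. Of the 15 calls made before the subtraction, 5 were kept. The split of rises and falls was 13 and 0 by total counts only, against 32.6% higher and 2.05% lower over all loci, whose median was 0.63. By the authors' own scaling it was 6 and 8, against 12.5% and 17.2% of all loci. By deposited FPKM, which has no interval and was called on 1.5-fold alone, it was 8 and 17, against 25.2% and 41.4%. With the mitochondrial genome left out of the scaling, all 15 calls were kept. The median log2 ratio was -0.11 over the members and 0.03 over all loci. GPX2 had 0 fragments in both NCM460 libraries and was not compared.

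Glutathione synthesis was led by GCLC (ENSG00000001084, chr6:53497341-53616970), the catalytic subunit of glutamate-cysteine ligase, which sets the rate of synthesis. It rose in HT-29 cells from 165 to 916 fragments, a log2 ratio of 2.23 (2.0 to 2.49). In NCM460 cells it had 14 and 44 fragments and rose by 1.09 (0.28 to 2.16), a call that was lost with the GC trend subtracted, at 0.42 (-0.39 to 1.49). The row is listed with the same values as RP1-27K12.2, so its fragments may include that gene. GCLM (ENSG00000023909, chr1:93885205-93909456), the modifier subunit that makes the enzyme more efficient, rose in HT-29 cells from 51 to 205 fragments, by 1.74 (1.33 to 2.25). In NCM460 cells it had 4 and 10 fragments, a ratio of 0.65 (-0.95 to 2.98) that was not measurable at this depth. Both subunits are on the study's own list of genes changed in these HT-29 libraries, so their direction is not independent evidence. The study deposited a second measure, FPKM, fragments per kilobase of transcript scaled to library size, which allows levels of different genes to be compared. On this scale GCLC stood at 3.35 times the level of GCLM in the HT-29 control and at 4.22 times with SCS. The last enzyme of the path, GSS, which joins glycine to the dipeptide, went the other way. It fell in HT-29 cells from 83 to 64 fragments, by 0.59 on the log2 scale (-1.10 to -0.12), and lost this call when a trend on GC content, length or expression was subtracted. In NCM460 cells GSS fell from 56 to 49 fragments, at -0.64 (-1.25 to -0.09), and was -0.22 (-0.83 to 0.33) once the GC trend was subtracted and 0.027 by total counts only.

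Glutathione reductase, GSR, which restores reduced glutathione with NADPH, had 78 and 114 fragments in HT-29 cells, a ratio of 0.31 (-0.11 to 0.75). In NCM460 cells it had 70 and 92, a ratio of -0.08 (-0.54 to 0.39). Its interval held 0 in both lines, unlike that of the thioredoxin reductase gene TXNRD1.

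The peroxidases use glutathione to reduce hydrogen peroxide and lipid peroxides. GPX2 (ENSG00000176153, chr14:64939152-64942905), the form typical of gut epithelium, fell in HT-29 cells from 383 to 181 fragments, at -1.30 (-1.58 to -1.05). GPX1, the widespread cytosolic form, had 127 and 151 fragments there, a ratio of 0.02 (-0.33 to 0.37). GPX4, which reduces peroxides within membranes and restrains ferroptosis, had 286 and 364, a ratio of 0.12 (-0.11 to 0.34). GPX2 thus fell, while the intervals of both relatives held 0 and reached no lower than -0.33. In NCM460 cells GPX1 fell from 154 to 121 fragments, at -0.81 (-1.18 to -0.47), and GPX4 from 234 to 195, at -0.73 (-1.02 to -0.46). These are the most GC-rich transcripts of the set along with KEAP1, up to 62.8% GC, and with the trend subtracted they were at -0.14 (-0.51 to 0.20) and -0.06 (-0.35 to 0.21).

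Glutathione transferases couple glutathione to electrophiles. In HT-29 cells 2 of 4 soluble forms fell, GSTP1 from 418 to 240 fragments, at -1.03 (-1.27 to -0.80), and GSTO1 from 63 to 38, at -0.92 (-1.58 to -0.36). GSTK1, the mitochondrial and peroxisomal form, had 162 and 134 fragments, a ratio of -0.50 (-0.85 to -0.17) that was under 1.5-fold. GSTM3 had 2 and 6 fragments, a ratio of 0.86 (-1.13 to 4.69), too few to give a direction. No soluble transferase rose in HT-29 cells. In NCM460 cells GSTP1, the most abundant member there by FPKM, fell from 454 to 419 fragments, at -0.59 (-0.78 to -0.39), and was 0.07 (-0.13 to 0.26) once the GC trend was subtracted and 0.10 by total counts only. GSTK1 had 29 and 39 fragments in NCM460 cells, GSTO1 had 37 and 46, and GSTM3 had 4 and 4, and each interval held 0.

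The microsomal transferases sit in membranes and act on lipid electrophiles and leukotrienes. In HT-29 cells MGST2 fell from 27 to 9 fragments, at -1.60 (-3.09 to -0.69), and MGST3 from 45 to 31, at -0.73 (-1.48 to -0.08). MGST1 had 90 and 152 fragments, a ratio of 0.52 (0.14 to 0.92), short of 1.5-fold, and was called higher at 0.79 by total counts only. MGST3 was the only one of the 3 called in NCM460 cells, where it fell from 42 to 26 fragments, at -1.10 (-1.93 to -0.43), or -1.48 (-2.31 to -0.80) with the GC trend subtracted. MGST3 fell in both lines with and without that subtraction. By total counts only its fall was not called in either line, and at equal nuclear depth it was not called in HT-29 cells. A second row of MGST3, with at most 1 fragment in any library, was left out. MGST1 had 7 and 10 fragments in NCM460 cells and MGST2 had 3 and 4, and both intervals held 0.

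Thioredoxin, its reductase, sulfiredoxin and the peroxiredoxins together took 0.161% (0.154 to 0.169) of nuclear fragments in the HT-29 control and 0.291% (0.282 to 0.30) with SCS, the largest gain in percentage points of any role in that line. Most of that gain lay on the reductase gene TXNRD1, which held 782 of the role's 1711 fragments in the control and 2770 of 4020 with SCS. TXNRD1 (ENSG00000198431, chr12:104215779-104350305), the cytosolic thioredoxin reductase, rose in HT-29 cells from 782 to 2770 fragments, by 1.59 (1.48 to 1.71). In NCM460 cells it rose from 57 to 311 fragments, by 1.94 (1.56 to 2.41), or 1.54 (1.16 to 2.01) with the GC trend subtracted. Its rise in NCM460 cells was 0.85 by the deposited FPKM. TXN, thioredoxin itself, had 252 and 360 fragments in HT-29 cells, a ratio of 0.28 (0.05 to 0.52) and not a call. In NCM460 cells TXN rose from 33 to 77 fragments, by 0.72 (0.14 to 1.38), but it has the lowest GC content of the members at 35.6%, and with the trend subtracted its ratio turned to -0.47 (-1.05 to 0.19). The reductase thus rose in both lines, while its substrate was not called in either once GC content was taken into account.

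SRXN1 (ENSG00000271303, chr20:646615-653370), sulfiredoxin, which rescues over-oxidised peroxiredoxins, rose in HT-29 cells from 108 to 432 fragments, by 1.75 (1.46 to 2.09). In NCM460 cells it had 36 and 43 fragments, a ratio of -0.21 (-0.89 to 0.46). Its row is listed with the same values as SCRT2 and a further overlapping locus. PRDX1 (ENSG00000117450, chr1:45511036-45523047), an abundant peroxiredoxin that sulfiredoxin acts on, moved in opposite directions in the lines. It fell from 423 to 290 fragments in HT-29 cells, at -0.77 (-1.0 to -0.56), and in NCM460 cells it rose from 124 to 392, by 1.18 (0.89 to 1.49), or 1.03 (0.74 to 1.34) with the GC trend subtracted. Its exons overlap those of MMACHC on the opposite strand, and with no statement that strand was used in counting, the fragments of these genes cannot be told apart. Exons of GCLC, GSTM3, MGST2, NFE2L2, MAFG, NQO1, EPHX1 and UGDH also overlap other genes on the opposite strand, so the same limit holds for them. PRDX6, which also has phospholipase activity, had 146 and 168 fragments in HT-29 cells, a ratio of -0.03 (-0.36 to 0.30). In NCM460 cells PRDX6 had 128 and 147, a ratio of -0.27 (-0.63 to 0.08), and was called lower with the GC trend subtracted, at -0.79 (-1.14 to -0.44).

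Superoxide dismutases turn superoxide into hydrogen peroxide. SOD1, the cytosolic copper-zinc form, fell in HT-29 cells from 77 to 51 fragments, at -0.80 (-1.37 to -0.30), and had 77 and 108 in NCM460 cells, a ratio of 0.01 (-0.42 to 0.46). SOD2, the mitochondrial manganese form, had 87 and 119 fragments in HT-29 cells, a ratio of 0.22 (-0.19 to 0.64). By the deposited FPKM the HT-29 ratio of SOD2 was -0.76, so the 2 measures differ in sign. In NCM460 cells SOD2 rose from 11 to 58 fragments, by 1.78 (0.98 to 3.0), or 1.53 (0.74 to 2.76) with the GC trend subtracted. Its exons overlap those of WTAP and ACAT2 on the opposite strand, and no source used here says that the counting used strand, so its fragments cannot be told apart from theirs.

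HMOX1 and NQO1, both widely used as readouts of NRF2, did not move together. HMOX1 (ENSG00000100292, chr22:35380361-35394214), which breaks down haem, rose in HT-29 cells from 8 to 38 fragments, by 1.80 (0.89 to 3.33). NQO1 (ENSG00000181019, chr16:69706996-69726951), which reduces quinones with NADPH, had 576 and 667 fragments in HT-29 cells, a ratio of -0.02 (-0.18 to 0.14). The interval of NQO1, which covers counting error only, ended at 0.14, and at 0.19 with the GC trend subtracted. NQO1 was measured with far more fragments than HMOX1. In NCM460 cells HMOX1 had 11 and 10 fragments, a ratio of -0.51 (-2.0 to 0.76), and NQO1 had 158 and 237, a ratio of 0.11 (-0.19 to 0.41).

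NFE2L2 (ENSG00000116044, chr2:177227595-177392697), the gene for NRF2, rose in HT-29 cells from 75 to 219 fragments, by 1.29 (0.93 to 1.71). MAFG, a small Maf partner, rose from 139 to 317, by 0.95 (0.67 to 1.26). KEAP1, the adaptor that sends NRF2 to degradation, had 63 and 93 fragments, a ratio of 0.32 (-0.15 to 0.81). In HT-29 cells the activator and its partner thus rose, while the interval of the activator's inhibitor, KEAP1, held 0. By total counts only KEAP1 was called higher too, at 0.59. In NCM460 cells NFE2L2 rose from 9 to 36 fragments, by 1.37 (0.45 to 2.77), and KEAP1 fell from 51 to 35, at -0.97 (-1.68 to -0.37). Both calls were lost with the GC trend subtracted, at 0.67 (-0.26 to 2.06) and -0.31 (-1.02 to 0.29). MAFG had 30 and 44 fragments there, a ratio of 0.07 (-0.62 to 0.80). The row of NFE2L2 is listed with the same values as AC074286.1 and that of MAFG with those of SIRT7, so their fragments are not certain to be theirs alone.

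Of the enzymes that supply NADPH or feed the pentose phosphate pathway, 3 of 4 rose in HT-29 cells. PGD (ENSG00000142657, chr1:10398592-10420144), which makes NADPH in the oxidative branch, rose from 288 to 703 fragments, by 1.05 (0.86 to 1.26). TKT (ENSG00000163931, chr3:53224707-53256052), transketolase of the branch that returns carbon to glycolysis, rose from 601 to 1222, by 0.79 (0.65 to 0.94). ME1 (ENSG00000065833, chr6:83210389-83431071), cytosolic malic enzyme, rose from 78 to 257, by 1.47 (1.12 to 1.87). The fourth, TALDO1, transaldolase of the same branch as TKT, had 366 and 520 fragments, a ratio of 0.27 (0.08 to 0.47). In NCM460 cells ME1 was the only one of the 4 to rise, from 5 to 52 fragments, by 2.55 (1.59 to 4.59), or 1.48 (0.52 to 3.52) with the GC trend subtracted. PGD had 154 and 168 fragments, a ratio of -0.34 (-0.67 to -0.02), and TKT had 395 and 388, a ratio of -0.50 (-0.71 to -0.29). TALDO1 had 95 and 106, a ratio of -0.31 (-0.73 to 0.10). None of these 3 was a call, and with the trend subtracted they were at -0.03, 0.09 and 0.18.

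OSGIN1, a stress gene known to respond to NRF2, rose in HT-29 cells from 42 to 105 fragments, by 1.06 (0.56 to 1.64). In NCM460 cells it fell from 25 to 18, at -0.87 (-1.91 to -0.02), and lost that call with the GC trend subtracted. Its row is listed with the same values as MLYCD and RP11-505K9.4. Among detoxification and export genes none was called in HT-29 cells, although UGDH was called higher by total counts only, at 0.78. EPHX1, which hydrolyses epoxides, had 226 and 308 fragments, a ratio of 0.21 (-0.04 to 0.47), and UGDH, which makes the UDP-glucuronate used in glucuronidation, had 295 and 494, a ratio of 0.51 (0.30 to 0.72). ABCC1, an exporter of glutathione conjugates, had 209 and 179, a ratio of -0.45 (-0.75 to -0.16), and is listed only on an alternate contig of chromosome 16. The intervals of UGDH and ABCC1 excluded 0, but both changes were under 1.5-fold. In NCM460 cells UGDH rose from 5 to 20 fragments, by 1.27 (0.07 to 3.30), and was 0.89 (-0.30 to 2.92) once the GC trend was subtracted. EPHX1 had 37 and 38 fragments there, ABCC1 had 141 and 153, and ABCC2, a further conjugate exporter, had 12 and 28, and none was called.

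**Figure D2:**
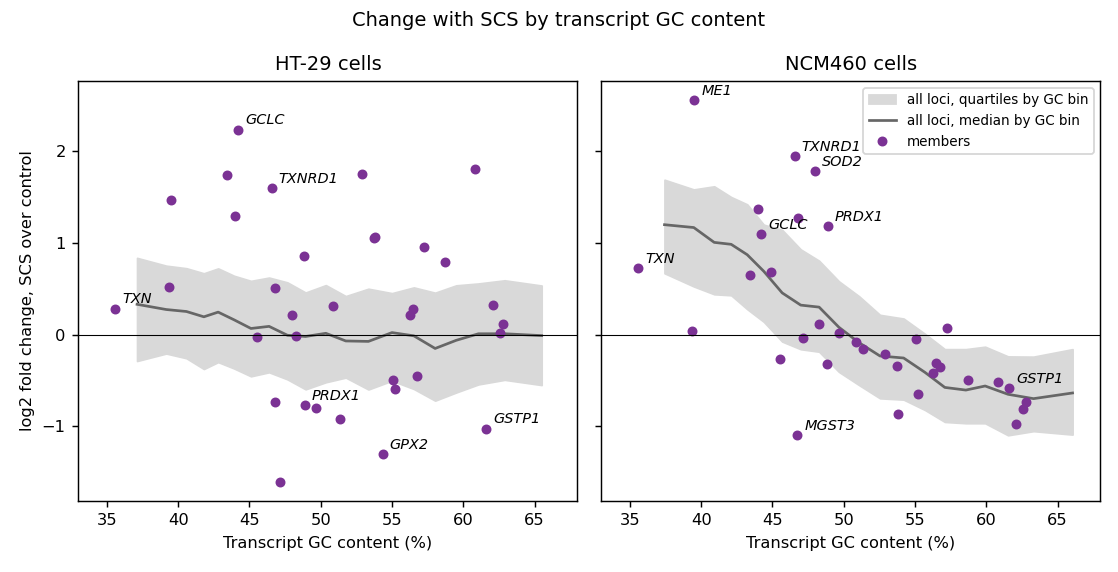
Log2 ratio of SCS over control (vertical axis) against transcript GC content in percent (horizontal axis) for the members, as points, in HT-29 cells (left) and NCM460 cells (right). The line and grey band are the median and quartiles over all loci in 20 bins of equal size. In NCM460 cells the line falls from 1.20 in the lowest bin to -0.64 in the highest and most members lie along it, while ME1, TXNRD1, SOD2 and PRDX1 lie above it and MGST3 and PRDX6 below.

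Over the members the Spearman coefficient of the ratio with GC content was -0.72 across 34 genes in NCM460 cells and -0.22 across 34 genes in HT-29 cells. The members of each line share their pair of libraries, and the part of GC content in the NCM460 ratios was not tested beyond the subtraction of its trend. In HT-29 cells the subtraction left 11 rises and 7 falls, with GSS the call that was lost.

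**Figure D3:**
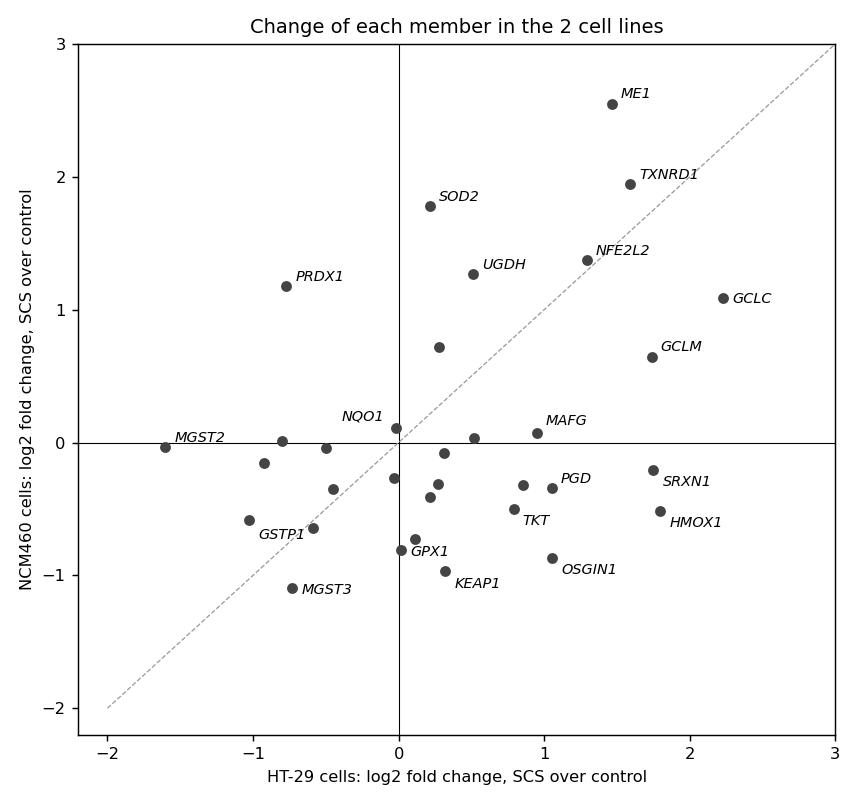
Log2 ratio of SCS over control in NCM460 cells (vertical axis) against HT-29 cells (horizontal axis) for the 33 members compared in both lines, 1 point per gene, with a dashed line of equal change. ME1, TXNRD1, NFE2L2 and GCLC lie in the upper right, MGST3, GSTP1 and GSS in the lower left, and PRDX1 in the upper left.

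The lines shared some calls and differed in others. GCLC, TXNRD1, NFE2L2 and ME1 rose in both, and GSS, GSTP1 and MGST3 fell in both, although in NCM460 cells TXNRD1, ME1 and MGST3 alone of these 7 were called with the GC trend subtracted. The share of all loci called in the same direction in both lines was not counted. The shared calls are therefore a list and not a trait of the members. HMOX1, SRXN1, GCLM and MAFG rose in HT-29 cells and had intervals that held 0 in NCM460 cells. By deposited FPKM these 4 were past 1.5-fold in the lower direction in NCM460 cells, at -0.73, -0.61, -1.25 and -0.85. For SRXN1 the HT-29 interval began at 1.46 and the NCM460 interval ended at 0.46. The difference between lines was not tested, since each line has 1 library per condition.

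**Figure D4:**
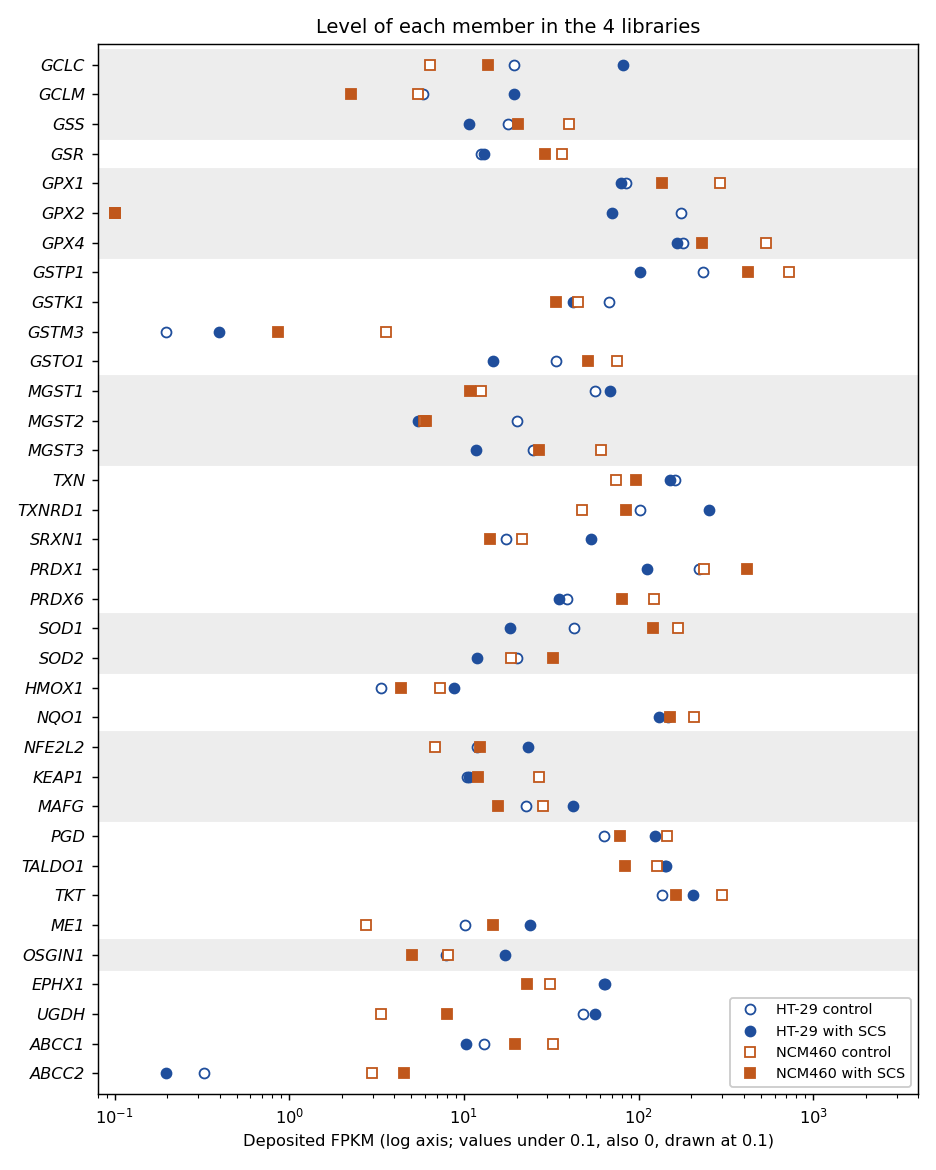
Deposited FPKM (horizontal log axis) of each member in the 4 libraries, with HT-29 cells as circles and NCM460 cells as squares, ordered by role with alternating grey bands. Open symbols are control libraries and filled symbols SCS libraries, and the symbols of GPX2 in both NCM460 libraries, listed at 0, coincide at the left edge. With SCS, TXNRD1 is the highest member in HT-29 cells, at 253 FPKM, while GSTP1 is the highest in both NCM460 libraries.

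By deposited FPKM the members spanned a wide range within each library, and their order changed with SCS in HT-29 cells. In the HT-29 control GSTP1 was highest at 233 FPKM, followed by PRDX1 at 221, GPX4 at 179 and GPX2 at 175, with TXNRD1 in place 9 at 101. With SCS TXNRD1 was first at 253 FPKM, followed by TKT at 205, GPX4 at 166 and TXN at 152, while GPX2 stood in place 12 and GSTP1 in place 9. GCLC moved from place 23, at 19.5 FPKM, to place 10, at 81.3. In NCM460 cells GSTP1 was first without SCS at 727 FPKM and with it at 421, and TXNRD1 went from place 14 to place 9. With 1 library per condition the spread of these places is not known.

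The lines already differed without SCS. HT-29 against NCM460 cells, 14 of 35 members were higher and 13 lower, or 77.1%, against 48.4% of 12691 loci called. With the GC trend subtracted it was 10 and 6, or 45.7%, against 38.3% of 12648 loci. By total counts only it was 19 and 1, or 57.1%, against 59.6% of all loci. Of those loci 50.8% were higher and 8.87% lower, and their median was 1.13. GPX2 was at 383 fragments in the HT-29 control and 0 in the NCM460 control, at least 48.6-fold higher against a floor of 3 fragments per library. UGDH had 295 and 5 fragments, a log2 ratio of 4.22 (3.25 to 6.12), TXNRD1 had 782 and 57, at 2.36 (2.0 to 2.80), and GCLC had 165 and 14, at 2.08 (1.38 to 3.07). These 3 genes and GPX2 kept the call with the GC trend subtracted. In the other direction lay SOD1, with 77 fragments in each library, which differ in scaled size, and a ratio of -1.36 (-1.87 to -0.92), PRDX6, at -1.19 (-1.56 to -0.85), GSR, at -1.21 (-1.72 to -0.75), and ABCC2, with 2 and 12 fragments and a ratio of -2.81 (-7.18 to -1.81). Each of these 4 was also lower with the trend subtracted, and by total counts only ABCC2 alone of them kept the call.

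With SCS in both lines 16 members were higher in HT-29 cells and 11 lower, or 77.1%. Over all 13050 loci 46.6% were called, 24.2% higher and 22.4% lower. With the GC trend subtracted it was 17 and 10, or 77.1%, against 46.6% of 12988 loci, 24.5% higher and 22.1% lower. By total counts only it was 20 and 5, or 71.4%, against 52.3% of all loci, 40.0% higher and 12.3% lower. These libraries are the same as those of the SCS comparisons, so the values add no independent evidence. GCLC had 916 fragments in HT-29 cells and 44 in NCM460 cells, a ratio of 3.19 (2.79 to 3.70), and GCLM 205 and 10, at 3.06 (2.30 to 4.29). SRXN1 had 432 and 43, at 2.14 (1.72 to 2.66), where without SCS it was at 0.19 (-0.36 to 0.78). PRDX1 had 290 and 392, at -1.58 (-1.81 to -1.36), where without SCS it was at 0.37 (0.08 to 0.68). GPX2, at 181 and 0 fragments, was higher by at least 27.1-fold against that floor.

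Other genes of the same pathways were taken from lists, in which genes listed with the same values count as 1 locus. These lists too were chosen with earlier results of these data known. Of 27 other genes known as NRF2 targets, 23 loci were compared in HT-29 cells, where 10 rose and 2 fell, with a median of 0.49. Over all loci 16.8% were higher and 14.8% lower there, with a median of 0.07. AKR1C1, an aldo-keto reductase, rose from 159 to 1128 fragments, by 2.58 (2.35 to 2.84). Its row is listed with the same values as AKR1C3 and RP11-499O7.4, so the fragments are not certain to be those of AKR1C1. The near-identical AKR1C2, which can share fragments with both, rose from 4 to 45, by 2.78 (1.80 to 5.20). ABCC4 and ABCG2, both drug exporters, fell, at -1.07 (-1.65 to -0.57) and -1.03 (-1.90 to -0.33). In NCM460 cells 1 of 23 loci rose and 1 fell, with a median of -0.16, against 15.3% higher and 13.7% lower over all loci. These were BLVRA, a biliverdin reductase, at 1.37 (0.09 to 3.72), and ABCB6, a porphyrin transporter, at -0.70 (-1.29 to -0.17). Of 11 other regulators and partners of NRF2, 4 of 10 compared rose in HT-29 cells and 1 fell. SQSTM1, an autophagy receptor that binds KEAP1, rose from 561 to 2307 fragments, by 1.80 (1.67 to 1.94), and BACH1, a repressor at antioxidant response elements, rose from 59 to 234, by 1.72 (1.34 to 2.19). NFE2L3, a relative of NRF2, fell from 87 to 47, at -1.09 (-1.66 to -0.59). A repressor and an activator of these elements thus rose in the same library. The row of BACH1 is listed with the same values as LINC00189. In NCM460 cells 3 of 11 rose and 2 fell, and none was called with the GC trend subtracted.

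The counts below stand beside 16.8% of all loci higher and 14.8% lower in HT-29 cells. Among 31 other glutathione genes 5 of 19 loci compared rose in HT-29 cells and 2 fell. CHAC1, which degrades glutathione, rose from 13 to 80 fragments, by 2.24 (1.53 to 3.36), and OPLAH, which returns 5-oxoproline to glutamate, from 4 to 44, by 2.75 (1.77 to 5.17). GGT1, which splits glutathione outside the cell, fell, at -1.36 (-2.0 to -0.84), in a row that is listed with the same values as SNRPD3. Among 21 other thioredoxin and peroxide genes 3 of 18 rose and 6 fell. TXNIP, an inhibitor of thioredoxin, rose from 37 to 223 fragments, by 2.30 (1.85 to 2.90), and SESN2, a sestrin induced by stress, from 28 to 188, by 2.44 (1.94 to 3.14). CAT, catalase, and PRDX3, the mitochondrial peroxiredoxin, fell, at -1.54 (-2.27 to -0.99) and -1.39 (-1.92 to -0.95). Among 20 other NADPH genes 5 of 18 rose and 4 fell, with IDH1, cytosolic isocitrate dehydrogenase, up from 169 to 799 fragments, by 2.0 (1.77 to 2.26), and MTHFD1, of cytosolic folate metabolism, down from 121 to 43, at -1.68 (-2.26 to -1.21). These 3 lists thus held genes called in both directions, with medians of -0.02, -0.32 and 0.05 against 0.07 over all loci. In NCM460 cells 4 of 20, 4 of 18 and 5 of 16 loci of the same lists rose, and 2, 3 and 2 fell. Over all loci 15.3% were higher there and 13.7% lower. With the GC trend subtracted 2, 2 and 4 rose and 0, 1 and 2 fell, against 6.91% higher and 5.75% lower over all loci. CAT, which fell in HT-29 cells, rose there from 5 to 31 fragments, by 1.85 (0.78 to 3.88), or 1.29 (0.23 to 3.32) with the GC trend subtracted.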

How the data were processed

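RNA from 4 cultures was sequenced by the study (total RNA by TRIzol, paired ends on an Illumina instrument) and compared there with Cuffdiff. The submitters' notes name bcl2fastq 2.17.1.14, cutadapt 1.9.1, Bowtie2 and HTSeq 0.6.1, with no role or order, and the build hg19, while the table's coordinates are those of GRCh38. In the table that the authors deposited, each library has counts and FPKM. The deposited counts are a signal, fragments divided by a factor of each library, and the deposited FPKM values are fragments per kilobase, scaled to library size. Whole fragments were recovered from the smallest step of each column, within 0.02, for between 99.8% and 99.9% of values above 0, and these fragments were used.

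Rows with no gene name, 26 in number and at most 0.0352% of a library's fragments summed over all rows before merging, were left out. Adjacent rows with identical values were then merged. Summed over all rows the libraries held between 4241669 and 9370765 fragments, and after these steps between 1156568 and 1654764. The members and lists were chosen with earlier results of these data known. All 35 members are named. Genes of the lists are taken from the up to 2 largest called rises and 2 largest called falls of each list and line, among loci that averaged 5 CPM or more, and not all of them are named. Fragments were scaled with edgeR 4.0.16 (TMM), with DESeq2 1.42.0 size factors as an alternative, and analysed in Python 3.11.15 with scipy 1.17.1 and statsmodels 0.14.6. Loci were compared where both libraries averaged at least 1 CPM. GC content and length came from GENCODE 29, with lowess trends of span 0.3. The script was tested on simulated data. Within a line, 1 library per condition leaves no residual for an edgeR or DESeq2 test of the recovered fragments, and a model with line and SCS as additive terms over the 4 libraries was not fitted. The floor of 3 fragments is 1.47, 1.25, 3.85 and 2.77 CPM in HT-29 cells without and with SCS and in NCM460 cells without and with SCS. The alternatives, 12 in number, were other scalings, FPKM with a pseudocount of 0.1, a prior count of 0.5, equal depth, other filters and subtracted trends. FPKM has no counting interval here, so its calls rest on 1.5-fold alone.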

Additional observations from a re-analysis of the deposited data

Results flagged for a closer look

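For 4 members the change with SCS went in opposite directions in the lines, with counting intervals on opposite sides of 0. The share of all loci with such intervals was not counted, so this number does not set the members apart. The difference between lines was not tested. As HT-29 minus NCM460, the log2 ratios differed by -1.95 for PRDX1, 1.39 for PGD, 1.29 for TKT and 1.92 for OSGIN1. PRDX1 and OSGIN1 were called in both lines, and PGD and TKT in HT-29 cells alone. With the GC trend subtracted the NCM460 value of TKT turned to 0.09, that of PGD was at -0.03 and that of OSGIN1 was no longer a call, while PRDX1 was still at 1.03 there and at -0.71 in HT-29 cells, with fragments that cannot be told apart from those of MMACHC.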

How the results depend on the processing

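No paired analysis was possible because each condition has 1 library and the labels carry no replicate numbers. In HT-29 cells all 11 rises kept their call under all 12 alternatives, with FPKM called on 1.5-fold alone. The falls numbered 4 by total counts only and 5 at equal nuclear depth, against 8.82% and 13.2% of all loci lower. In NCM460 cells the rises numbered 4 with the GC trend subtracted and 13 by total counts only, against 6.91% and 32.6% of all loci higher. The falls there numbered 0 by total counts only, 17 by deposited FPKM on 1.5-fold alone, and 2 at equal depth. They numbered 2 with the GC trend subtracted and 3 with the expression trend subtracted. Over all loci the shares lower were 2.05%, 41.4%, 8.92%, 5.75% and 11.6%, in that order. HT-29 against NCM460 cells, the members lower numbered 1 without SCS and 5 with SCS by total counts only, and 6 without SCS when the GC trend was subtracted. Over all loci the shares lower were 8.87%, 12.3% and 17.3%, in that order. Total counts only, which leave in the mitochondrial share, moved the median of all loci to 0.31 in HT-29 cells, 0.63 in NCM460 cells, and 1.13 and 0.63 between lines without and with SCS. In NCM460 cells GSS turned to 0.027 by total counts only, GSTP1 to 0.10 by total counts, and after the GC trend was subtracted GSTP1 turned to 0.066 and TXN to -0.47. Between lines without SCS, GSS turned to 0.26, KEAP1 to 0.0086, TKT to 0.31 and ABCC1 to 0.27 by total counts only, and MAFG to -0.32 by deposited FPKM. The causes were not tested. By deposited FPKM GCLM in NCM460 cells was at -1.25, from 4 and 10 fragments.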
